A study of Mus musculus with 6 samples.

Results

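The 10 mouse genes described here encode the core of the hypoxia-inducible factor (HIF) pathway and 2 pairs of its known target genes. They are the HIF subunits *Hif1a*, *Epas1* and *Arnt*, the HIF prolyl hydroxylases *Egln1* and *Egln3*, the ubiquitin ligase subunit *Vhl*, the collagen prolyl hydroxylases *P4ha1* and *P4ha2*, and the mitophagy receptors *Bnip3* and *Bnip3l*. Each row of the value table was taken whose annotation gave exactly 1 of these symbols, which yielded 12 rows of 35556 and 10 genes of 19938, with 2 rows each for *Bnip3* and *Bnip3l*. *Hif1a* and *P4ha2* were lower upon *Paupar* knockdown, by 1.58-fold and 1.61-fold. *Bnip3* was called 1.66-fold lower from 1 of its 2 rows, in the main test on genes filtered by variation. The row that lies at the place of the gene was 1.53-fold lower and did not enter that test. In a fit to all rows with 1 symbol, neither row of *Bnip3* passed (limma adjusted p = 0.109 and 0.119). The other genes, *Epas1*, *Arnt*, *Egln1*, *Egln3*, *Vhl*, *P4ha1* and *Bnip3l*, did not pass the test.

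*Paupar* is a long noncoding RNA made from a locus near the transcription factor gene *Pax6*, and the experiment asked which transcripts depend on it in N2A cells, an adherent mouse neuroblastoma line. In the knockdown group, 3 cultures received a plasmid for a short hairpin RNA that targets *Paupar*, and in the control group, 3 cultures received a non-targeting vector. All 6 cultures were grown with 10% serum, transfected transiently with 1.5 µg of plasmid without selection of a clone, and lysed for total RNA 2.5 days after transfection, and the labels name no treatment with low oxygen for either group. Each RNA was read on 1 Affymetrix Mouse Gene 1.0 ST array, and values are log2 RMA values, so that a difference of 1 is a 2-fold difference in signal. The methods call the replicates of a group biological.

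Array medians lay between 7.40 and 7.47 and correlations between arrays over all genes between 0.990 and 0.998, and no array had a twin with identical values. Such correlations mostly reflect differences between genes, so they cannot show that no array deviated. The number of genes called by limma was 752 with all 6 arrays, 112 without control replicate 3 and 1239 without knockdown replicate 3. No row was annotated as *Paupar*, hence the depth of the knockdown was not analysed here. Of the markers of sympathetic neuroblasts, the cells from which neuroblastoma derives, 12 of 13 were measured. Their mean lay between 10.97 and 11.13 on knockdown arrays and between 11.26 and 11.33 on control arrays. Of the 12, 3 fell (*Dbh*, *Th* and *Chgb*), 6 did not pass and 3 were outside the filter, where 5.16% of all filtered genes were called lower. Estimates were below 0 for 10 of the 12, but *Gata2* was higher on all knockdown arrays (log2 fold change 0.24, limma adjusted p = 0.197) and *Mycn* was unchanged (0.00). With an array left out, *Dbh* passed in all 6 limma fits, *Th* in 3 (adjusted p = 0.0574 without knockdown replicate 1, 0.0544 without control replicate 1 and 0.0824 without control replicate 3) and *Chgb* only in the fit that omitted knockdown replicate 3. For *Chgb* the adjusted p was 0.170 or 0.140 when knockdown replicate 1 or 2 was omitted, and 0.0625, 0.0617 or 0.117 when control replicate 1, 2 or 3 was. Glia markers (7 of 8 measured) averaged 6.92 to 6.98 on knockdown arrays and 6.78 to 7.00 on control arrays. Fibroblast markers (7 of 7) averaged 7.18 to 7.34 on knockdown arrays and 7.12 to 7.53 on control arrays, and blood and endothelial markers (8 of 9) averaged 6.79 to 6.85 on knockdown arrays and 6.67 to 6.88 on control arrays. None of the markers of these other cells passed the test (limma; at an unadjusted p under 0.05 there were 0 of glia, 1 of fibroblasts and 0 of blood and endothelium). The part of the 3 neuroblast markers that fell in the results on the HIF genes was not tested.

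HIF is a heterodimer of an oxygen-labile alpha subunit, encoded by *Hif1a* or *Epas1*, and a stable beta subunit, encoded by *Arnt*. In well-oxygenated cells the EGLN enzymes hydroxylate prolines of the alpha subunit, the VHL protein binds the hydroxylated form, and the alpha subunit is ubiquitinated and degraded. In low oxygen it escapes this control, joins ARNT and binds hypoxia response elements near genes of glucose uptake, collagen modification, pH control and mitophagy. Much of the control of HIF acts on the protein, which these arrays did not measure. In neuroblastoma both alpha subunits have been studied.

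The bases before the transcription start are shown for the 3 genes called lower and for *P4ha1*, the paralogue of *P4ha2*, because the hypoxia response element has a short core that can be searched for there. The core letters ACGTG and GCGTG were searched on both strands of the 250 bases before each start, so that a match on the opposite strand reads CACGT or CACGC. Capitals mark these matches, and CACGTG holds a match on each strand. The sequences are RefSeq's for build GRCm38.p6, 5′ to 3′ on the strand of the gene, from chr12:73907617-73907866 (plus strand) for *Hif1a*, chr10:59323046-59323295 (plus strand) for *P4ha1*, chr11:54100674-54100923 (plus strand) for *P4ha2* and chr7:138909507-138909756 (minus strand) for *Bnip3*. They are upstream of the first exon.
Hif1a: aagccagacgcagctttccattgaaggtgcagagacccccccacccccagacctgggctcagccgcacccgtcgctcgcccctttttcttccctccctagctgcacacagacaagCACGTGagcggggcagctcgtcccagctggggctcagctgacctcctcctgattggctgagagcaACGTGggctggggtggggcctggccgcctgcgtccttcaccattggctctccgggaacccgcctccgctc
P4ha1: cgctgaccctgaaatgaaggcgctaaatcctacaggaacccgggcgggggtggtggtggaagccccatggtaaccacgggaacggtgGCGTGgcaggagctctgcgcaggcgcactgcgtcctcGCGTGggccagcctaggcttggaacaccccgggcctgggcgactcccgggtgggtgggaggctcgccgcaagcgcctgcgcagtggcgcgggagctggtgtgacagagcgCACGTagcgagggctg
P4ha2: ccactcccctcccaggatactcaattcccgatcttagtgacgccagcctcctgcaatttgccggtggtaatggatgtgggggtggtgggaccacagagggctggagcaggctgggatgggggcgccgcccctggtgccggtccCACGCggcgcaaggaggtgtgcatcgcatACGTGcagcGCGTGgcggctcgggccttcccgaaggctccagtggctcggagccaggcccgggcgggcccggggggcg
Bnip3: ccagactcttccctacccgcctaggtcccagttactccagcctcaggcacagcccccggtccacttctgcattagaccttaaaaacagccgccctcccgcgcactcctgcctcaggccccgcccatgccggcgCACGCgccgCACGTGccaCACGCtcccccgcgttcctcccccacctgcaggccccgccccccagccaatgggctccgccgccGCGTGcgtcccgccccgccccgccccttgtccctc

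A window was at hand for 8 of the 10 genes, all except *Epas1* and *Bnip3l*. *Hif1a* had 3 matches in 2 stretches, 1 of them a CACGTG from 135 to 130 bases before the start. *P4ha2* had 3 matches, which began 107, 78 and 69 bases before the start, and *P4ha1* also had 3. *Bnip3* had 5 matches in 4 stretches, 3 of which lay between 117 and 95 bases before the start. At least 1 match was present in 7 of the 8 windows, against 38.6% of 32851 windows of this length in the table, and at least 3 were present in 4 of the 8, against 6.58%. The 8 windows thus held the letters often, but those of *P4ha1* and *Egln1*, which did not pass the test, held them as well (3 and 2 matches). Both cores contain the letters CG, and the share of G and C in the 8 windows ran from 50.8% (*Egln3*) to 86.0% (*Egln1*). The shares over all windows were not matched for G and C, and the part of base content in the counts was not tested. *Vhl* had 0 matches, which says only that these letters are not in this window.

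**Figure D1:**
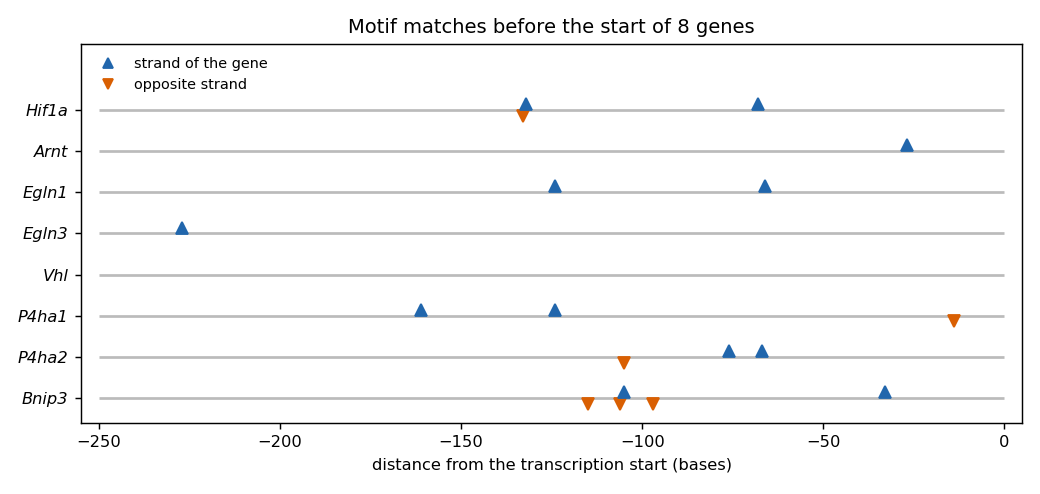
Matches of ACGTG or GCGTG in the 250 bases before the transcription start of 8 genes (x axis, distance from the start in bases; 1 line per gene). Upward triangles are matches on the strand of the gene and downward triangles matches on the opposite strand; *Bnip3* has 5 matches and *Vhl* 0.

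Among the 3 HIF subunits, *Hif1a* fell and the other 2 did not pass the test. *Hif1a* (chromosome 12), which encodes the alpha subunit HIF-1α, had 11.45, 11.55 and 11.63 on the knockdown arrays, against 12.28, 12.18 and 12.15 on the control arrays. All 3 knockdown arrays lay below all 3 control arrays, and the gap between the groups was wider than the spread within either. The mean was 11.54 ± 0.09 in knockdown and 12.20 ± 0.07 in control (SD, n = 3 each), a log2 fold change of -0.66 (SE 0.12, 95% interval -0.91 to -0.41; limma, Benjamini-Hochberg adjusted p = 0.00555). Knockdown cells thus held 63.3% of the control signal. With each of the 6 arrays left out in turn *Hif1a* passed every time, with a largest adjusted p in limma of 0.0465 (without control replicate 3) and log2 fold changes between -0.70 and -0.61. In a bulk sample fewer cells with a transcript and less of it per cell cannot be told apart.

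*Epas1* (chromosome 17), which encodes HIF-2α, had 6.56, 6.48 and 6.50 on the knockdown arrays, against 6.54, 6.37 and 6.33 on the control arrays. The groups overlapped and every array was within a narrow range. Its low variation placed it outside the filter that preceded the main test, so its estimate came from a limma fit to all 21789 rows with 1 symbol (log2 fold change 0.10, SE 0.09, 95% interval -0.09 to 0.29, adjusted p = 0.604). Relative to their control means, *Epas1* minus *Hif1a* was 0.89, 0.71 and 0.66 on the knockdown arrays, against 0.05, -0.02 and -0.03 on the control arrays. The changes of the 2 rows differed by 0.76 on the log2 scale (exact two-sided permutation p = 0.1, adjusted p = 0.133 over 4 pairs of paralogues), a difference that mostly restates the fall of *Hif1a*. *Epas1* lay below the median of every array and is not shown to be above background. With 3 arrays against 3 the test cannot give a p below 0.1.

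*Arnt* (chromosome 3), which encodes the beta subunit, had 10.47, 10.65 and 10.90 on the knockdown arrays, against 11.03, 10.43 and 10.76 on the control arrays. The groups overlapped over nearly their whole range, with control arrays holding both the highest and the lowest value. Its log2 fold change was -0.07 (SE 0.16, 95% interval -0.40 to 0.27, limma adjusted p = 0.817).

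**Figure D2:**
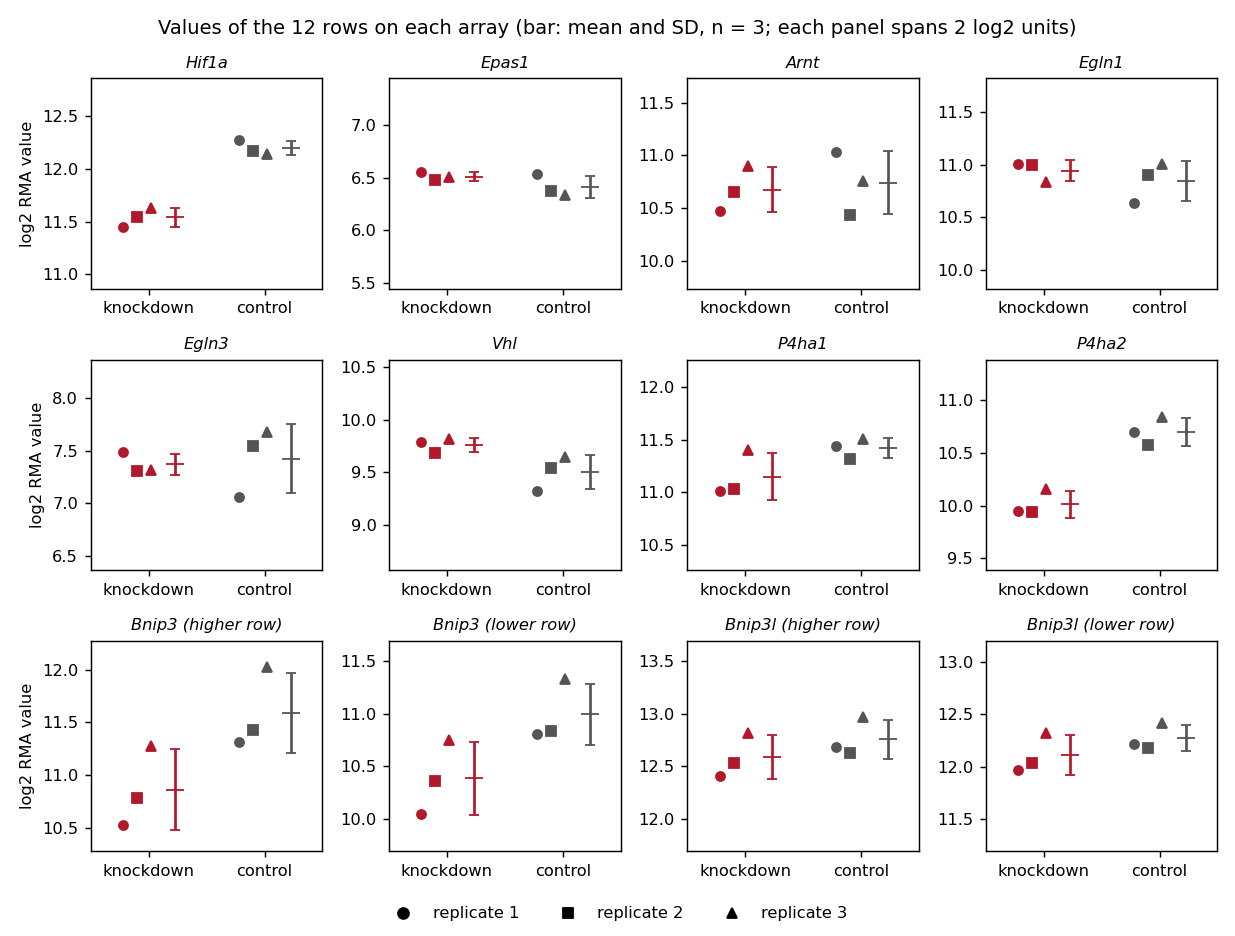
Log2 RMA values (y axis) of the 12 rows of the 10 genes, with knockdown arrays left of control arrays in each panel. Symbols are single arrays, marked by replicate number, bars are the mean and SD (n = 3), and each panel spans 2 log2 units; *Hif1a*, *P4ha2* and both rows of *Bnip3* have all knockdown arrays below all control arrays.

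None of the genes that mark or destroy the HIF alpha subunit passed the test. *Egln1* (chromosome 8), the main HIF prolyl hydroxylase in most cells, had 11.01, 11.00 and 10.83 on the knockdown arrays, against 10.63, 10.90 and 11.01 on the control arrays. *Egln3* (chromosome 12), a prolyl hydroxylase that HIF itself induces, had 7.49, 7.31 and 7.32 on the knockdown arrays, against 7.06, 7.55 and 7.67 on the control arrays. For both genes the knockdown values lay inside or at the edge of the control range, and the control arrays spread more widely than the knockdown arrays. The log2 fold change was 0.10 for *Egln1* (SE 0.13, 95% interval -0.18 to 0.37, limma adjusted p = 0.655) and -0.06 for *Egln3* (SE 0.15, 95% interval -0.38 to 0.27, limma adjusted p = 0.841). The sign of either estimate depended on single arrays and carries no direction. *Egln3* minus *Egln1* differed by -0.15 between the groups (exact two-sided permutation p = 0.3, adjusted p = 0.3).

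*Vhl* (chromosome 6), which encodes the subunit that recognises hydroxylated HIF-α, had 9.79, 9.69 and 9.81 on the knockdown arrays, against 9.33, 9.54 and 9.65 on the control arrays. All knockdown arrays lay above all control arrays, although the lowest knockdown value was close to the highest control value. The log2 fold change of 0.26 (SE 0.12, 95% interval -0.01 to 0.52) did not pass (limma adjusted p = 0.199). *Vhl* was the only one of the 12 rows with all knockdown arrays above all control arrays, an order that 12.4% of the 21789 rows with 1 symbol showed.

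The 2 collagen prolyl 4-hydroxylases gave different calls. Their products are alternative catalytic alpha subunits of the enzyme of the endoplasmic reticulum that hydroxylates collagen chains, a step that stabilises the collagen triple helix, and both are known HIF targets. *P4ha2* (chromosome 11) had 9.95, 9.94 and 10.16 on the knockdown arrays, against 10.70, 10.57 and 10.84 on the control arrays. The groups were clearly apart, since the highest knockdown array lay well below the lowest control array. The mean was 10.01 ± 0.13 in knockdown and 10.70 ± 0.13 in control (SD, n = 3 each), a log2 fold change of -0.69 (SE 0.12, 95% interval -0.96 to -0.42, limma adjusted p = 0.00622). It passed in 5 of the 6 limma fits with an array left out, and without control replicate 3 its adjusted p was 0.0625 at a log2 fold change of -0.62.

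*P4ha1* (chromosome 10) had 11.01, 11.03 and 11.40 on the knockdown arrays, against 11.44, 11.31 and 11.51 on the control arrays. Knockdown replicates 1 and 2 lay below every control array, and knockdown replicate 3 lay within the control range. The log2 fold change was -0.27 (SE 0.13, 95% interval -0.56 to 0.01, limma adjusted p = 0.209), and without knockdown replicate 3 it was -0.40 with an adjusted p of 0.0485. *P4ha2* minus *P4ha1*, relative to control means, was -0.35, -0.38 and -0.53 on the knockdown arrays, against -0.03, -0.02 and 0.05 on the control arrays. The value of *P4ha2* was therefore further below its control mean than that of *P4ha1* on every knockdown array, and the changes differed by -0.42 on the log2 scale (exact two-sided permutation p = 0.1, the smallest possible, adjusted p = 0.133).

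*Bnip3* and *Bnip3l* encode related proteins of the outer mitochondrial membrane that recruit the autophagy machinery to mitochondria, and both are known HIF targets. *Bnip3* had 2 rows. Its row with the higher mean (probe set 10414269) had 10.52, 10.79 and 11.28 on the knockdown arrays, against 11.32, 11.42 and 12.03 on the control arrays. Its row with the lower mean (probe set 10568785) had 10.05, 10.36 and 10.75 on the knockdown arrays, against 10.81, 10.84 and 11.33 on the control arrays. In both rows all knockdown arrays lay below all control arrays, by a small margin, and replicate 3 was the highest array of its group.

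The higher row, which entered the main test, averaged 10.86 ± 0.38 in knockdown and 11.59 ± 0.38 in control (SD, n = 3 each), a log2 fold change of -0.73 (SE 0.20, 95% interval -1.15 to -0.31, limma adjusted p = 0.0403). The lower row had a log2 fold change of -0.61 (SE 0.19) and did not pass in the limma fit to all rows with 1 symbol (adjusted p = 0.119), nor did the higher row there (adjusted p = 0.109). With the lower row in the main test in place of the higher, a choice made after its values were seen, the limma adjusted p was 0.0512. The estimates of the rows were alike, but the call for *Bnip3* was the least stable of the 3. It was lost without knockdown replicate 1 (limma adjusted p = 0.153), knockdown replicate 2 (0.137), control replicate 1 (0.0762) or control replicate 3 (0.194), and kept in 2 of the 6 such fits.

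*Bnip3l* had 12.41, 12.53 and 12.82 on the knockdown arrays, against 12.68, 12.62 and 12.97 on the control arrays in its row with the higher mean (probe set 10394800). Its row with the lower mean (probe set 10421003) had 11.97, 12.04 and 12.32 on the knockdown arrays, against 12.22, 12.18 and 12.42 on the control arrays. Here the groups overlapped in both rows, because knockdown replicate 3 lay within the control range. The log2 fold change was -0.17 (SE 0.14, 95% interval -0.47 to 0.13, limma adjusted p = 0.446) in the higher row and -0.16 (limma adjusted p = 0.503) in the lower row. In the higher row it was -0.07 when control replicate 3 was omitted, and -0.08 or -0.29 when knockdown replicate 1 or 3 was. With array weights it was -0.42.

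*Bnip3* minus *Bnip3l*, relative to control means, was -0.72, -0.57 and -0.38 on the knockdown arrays, against -0.20, -0.03 and 0.22 on the control arrays. The changes of *Bnip3* and *Bnip3l* differed by -0.56 on the log2 scale (exact two-sided permutation p = 0.1, adjusted p = 0.133), and between the lower rows the difference was -0.45. All knockdown arrays lay below all control arrays in this difference, with either set of rows.

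What the higher rows of *Bnip3* and *Bnip3l* measure is uncertain. Probe set numbers on this array follow the order of genes along chromosomes, and for the 8 genes with 1 row at least 7 of the 8 rows with the nearest numbers belonged to the chromosome of the gene. RefSeq places *Bnip3* on chromosome 7 and *Bnip3l* on chromosome 14. The lower row of *Bnip3* had 8 of 8 neighbours on chromosome 7, but its higher row had 8 of 8 on chromosome 14, between *BC061237* and *Ptger2*. The lower row of *Bnip3l* had 7 of 8 neighbours on chromosome 14, but its higher row had 8 of 8 on chromosome 12, between *Gm4983* and *5730507C01Rik*, where RefSeq lists the pseudogene *Bnip3l-ps*. By this order the lower rows lie at the place of the genes. The higher row exceeded the lower row by 0.43 to 0.69 over the 6 arrays for *Bnip3* and by 0.44 to 0.56 for *Bnip3l*, so that the rows of a gene moved together across arrays. Whether the signal of the higher rows comes from these genes or from near-identical copies was not tested.

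**Figure D3:**
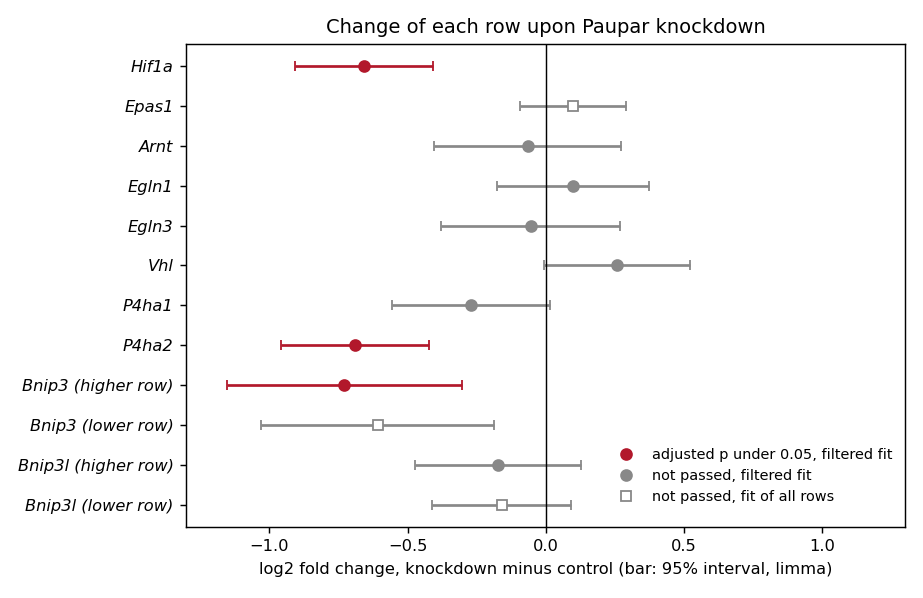
Log2 fold change, knockdown minus control, of each of the 12 rows (x axis; points are limma estimates, bars 95% intervals, n = 3 arrays per group). Red circles passed an adjusted p of 0.05, grey circles did not, and open squares are rows outside the filtered fit; the intervals of *Hif1a*, *P4ha2* and *Bnip3* (higher row) lie below -0.30.

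Over the 10 genes, 9 passed the filter on variation, and of these 3 were called lower (*Hif1a*, *P4ha2* and *Bnip3*) and 0 higher by limma. *Vhl* came closest to a rise, with an unadjusted p of 0.0553. In the same fit 5.16% of 9969 genes were called lower and 2.39% higher. Without the filter, 2 of the 12 rows were called lower (*Hif1a*, adjusted p = 0.0105, and *P4ha2*, adjusted p = 0.0142), against 2.09% of 21789 rows with 1 symbol. All knockdown arrays lay below all control arrays in 4 of the 12 rows, against 10.8% of the 21789 rows, and 2 of these 4 rows belonged to *Bnip3*. The median change of the 10 genes was -0.12 with 7 of 10 below 0, and the median change of all 19938 genes was 0.03 with 41.6% below 0. The genes are few and were chosen with their pathway in mind and with earlier results of these data known. The counts therefore describe these genes only and are no independent support.

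The calls rested on the set of rows tested as well. When rows with several or no symbols and all rows of a gene entered the limma fit, with the filter on variation kept, 0 of 17778 rows passed, 3015 of them with an unadjusted p under 0.05, and *Hif1a* had an adjusted p of 0.121. The plot of adjusted p by setting shows that *Hif1a* passed in every other setting and that *Bnip3* crossed the threshold in many.

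**Figure D4:**
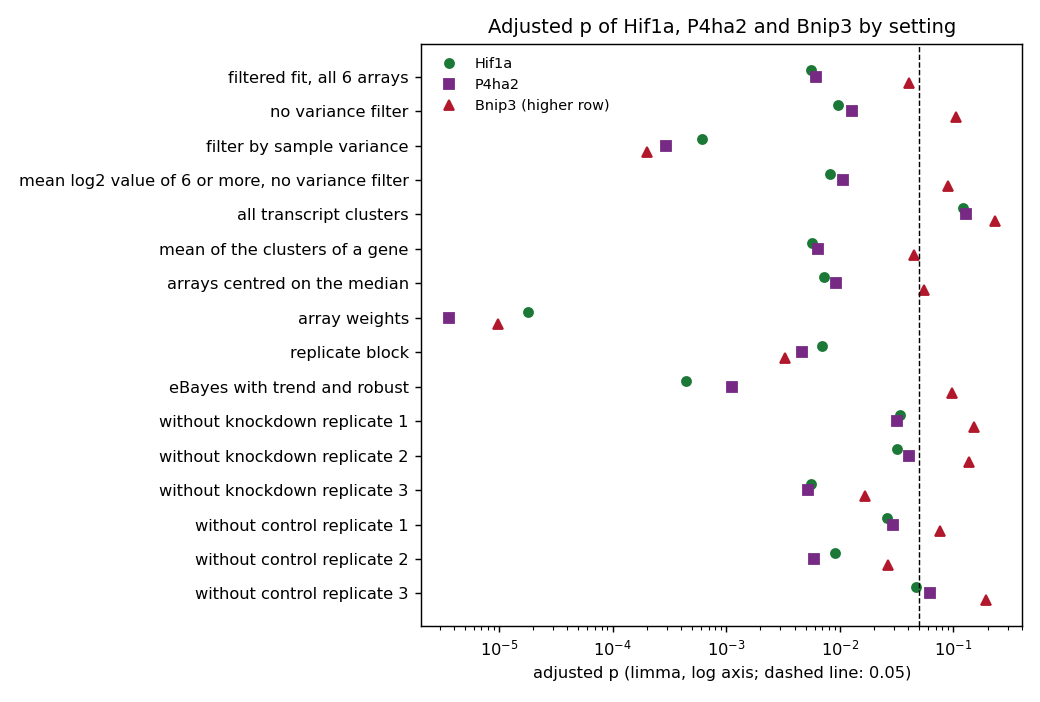
Adjusted p in limma (x axis, log scale) of *Hif1a* (circles), *P4ha2* (squares) and the higher row of *Bnip3* (triangles) in the filtered fit to 6 arrays and in 15 other settings (rows). The dashed line is 0.05; *Hif1a* lies right of it with all transcript clusters only, *P4ha2* also without control replicate 3, and *Bnip3* in 9 of the 16 settings.

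Genes with a course most like those that fell were sought among 9138 filtered genes, by the root mean square difference of the 6 values after the control mean of each gene was subtracted. For *Hif1a* these were *Mia3*, which helps load collagen for export from the endoplasmic reticulum (0.0356 log2 units), the mitochondrial nucleotide carrier *Slc25a36* (0.0366) and *Rapgef2*, an activator of Rap GTPases (0.0397). For *P4ha2* they were the orphan receptor *Mrgprf* (0.0494), *Gnpnat1*, an enzyme that makes amino sugars (0.0675), and the small GTPase *Rhoq* (0.0695). For *Bnip3* they were *Bhlhe40*, a transcriptional repressor and known HIF target (0.106), *Hey2*, a repressor downstream of Notch (0.161), and the cytochrome P450 *Cyp2s1* (0.178). The nearest genes of *Bnip3* were thus less close to it than those of *Hif1a* and *P4ha2* were to theirs. The arrays of *Bnip3* also spread more within a group (SD 0.38 in each group, against 0.07 to 0.13 for *Hif1a* and *P4ha2*). *Bhlhe40* did not itself pass the test (limma adjusted p = 0.0692). The measure keeps the change between groups, so it favours genes with a like fold change. *Mia3*, for example, had a log2 fold change of -0.68, beside -0.66 for *Hif1a*. How close the nearest of 9138 genes would come by chance was not tested, and likeness shows no shared function.

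Other genes of the pathway were counted in 4 lists, which were likewise chosen with earlier results of these data known. Of the HIF pathway core, 19 genes were measured, and *Hif1a* was the only one called, while 11 did not pass and 7 were outside the filter. Genes outside the filter could not be called, so in each list only the filtered genes compare with the shares over all filtered genes. Since 5.16% of all filtered genes were called lower and 2.39% higher, 1 call among the filtered genes of this list is close to the general share. Of its 13 genes other than those above, 0 were called by limma, and 0 had an unadjusted p under 0.05. The largest estimates among them were 0.20 for *Rbx1*, a ring finger subunit of the VHL ubiquitin ligase, and 0.18 for *Hif1an*, which hydroxylates an asparagine of HIF-α, and neither passed (limma adjusted p = 0.308 and 0.366). The median of the list was 0.10 with 8 of 19 genes below 0, beside 0.03 with 41.6% below 0 over all genes. *Hif1a* had the lowest estimate of the core, as the strip plot of the lists shows.

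Of 40 HIF target genes outside glycolysis, 38 were measured, of which 6 fell, 0 rose, 23 did not pass and 9 were outside the filter. Over all filtered genes 5.16% were called lower and 2.39% higher. At an unadjusted p under 0.05, 11 of the 38 were lower and 0 higher, against 7.89% lower and 6.03% higher of all 19938 genes. The median was -0.18 with 27 of 38 below 0, and -0.17 with 22 of 32 below 0 when the genes above were left out, beside 0.03 with 41.6% below 0 over all genes. Without control replicate 3 the median of the 38 was -0.11. *Car12*, a membrane carbonic anhydrase that acts in pH control, had 9.63, 9.65 and 10.13 on the knockdown arrays, against 10.80, 10.68 and 10.91 on the control arrays. It was 1.99-fold lower (limma adjusted p = 0.00244) and, like *Hif1a*, passed in all 6 fits with an array left out. *Ddit4*, an inhibitor of mTORC1, was 1.40-fold lower (limma adjusted p = 0.0398), *Plod2*, a collagen lysyl hydroxylase, 1.38-fold lower (0.0404), and the glucose transporter gene *Slc2a1* 1.42-fold lower (0.0454).

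*Ddit4*, *Plod2* and *Slc2a1* lost their calls in the same 4 fits as *Bnip3*. Without knockdown replicate 1 their limma adjusted p was 0.152, 0.172 and 0.151, without knockdown replicate 2 it was 0.177, 0.184 and 0.205, without control replicate 1 it was 0.0762, 0.0855 and 0.0910, and without control replicate 3 it was 0.164, 0.136 and 0.190. The number of HIF targets called lower was 1 without control replicate 3, 2 without knockdown replicate 1 or knockdown replicate 2, and 9 without knockdown replicate 3. It was 3 when arrays were centred on their medians.

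**Figure D5:**
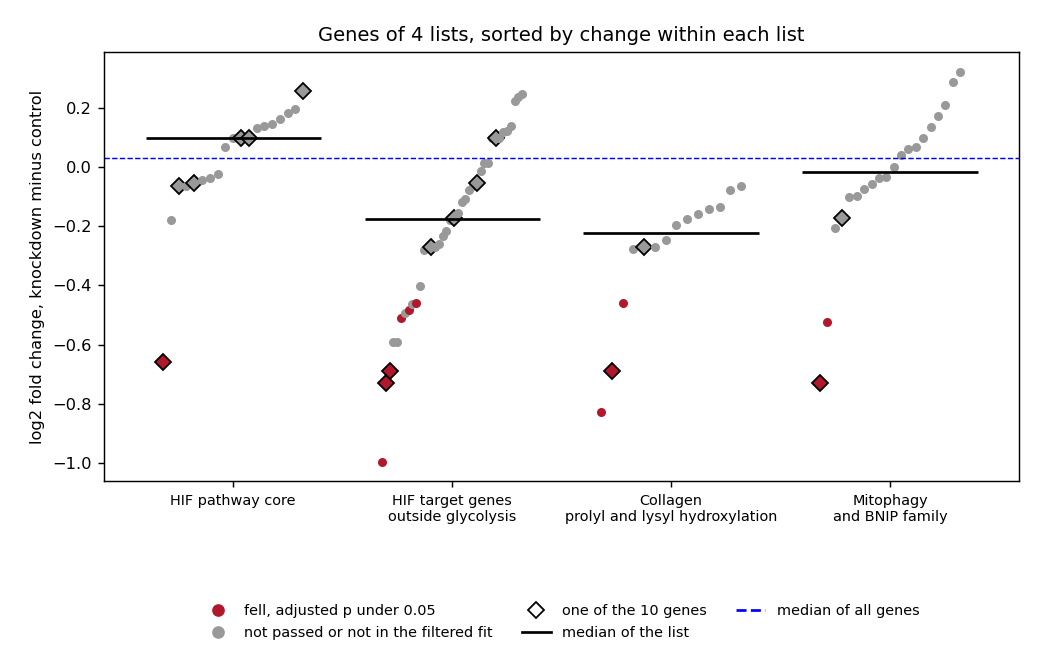
Log2 fold change, knockdown minus control (y axis), of the genes of 4 lists, sorted within each list. Red points fell (limma adjusted p under 0.05), grey points did not pass or were outside the filter, diamonds are the 10 genes, black lines are list medians and the dashed line is the median of all genes (0.03); every gene of the collagen list lies below 0, and *Hif1a* is the lowest gene of the pathway core.

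The list for collagen prolyl and lysyl hydroxylation held 14 genes. It took in the lysyl oxidase gene *Lox* and the transmembrane prolyl hydroxylase gene *P4htm* (log2 fold change -0.18), which do not encode collagen hydroxylases. Of the 14, 3 fell (*P4ha2*, *Plod2* and *P3h3*), 0 rose, 8 did not pass and 3 were outside the filter, where 5.16% of all filtered genes were called lower. At an unadjusted p under 0.05 there were 5 lower and 0 higher, against 7.89% and 6.03% of all genes. *P3h3*, of the collagen prolyl 3-hydroxylase family, had 8.99, 9.01 and 9.24 on the knockdown arrays, against 9.65, 10.11 and 9.97 on the control arrays. It was 1.78-fold lower (limma adjusted p = 0.00417), with all knockdown arrays below all control arrays, and its adjusted p without control replicate 3 was 0.0538. All 14 estimates were below 0, against 41.6% of all genes, with a median of -0.22, and the 12 genes other than *P4ha1* and *P4ha2* had a median of -0.19. Of these, *Lox* (-0.08) and *P3h2* (-0.06) lay below the median of every array and are not shown to be above background. The list shares 5 genes with the HIF targets (*Lox*, *P4ha1*, *P4ha2*, *Plod1* and *Plod2*). Without control replicate 3, 0 of the 14 genes were called by limma.

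Of 22 genes of mitophagy and the BNIP family, 20 were measured, 2 fell (*Bnip3* and *Fundc1*), 0 rose, 6 did not pass and 12 were outside the filter. Among all filtered genes, 5.16% were called lower and 2.39% higher. At an unadjusted p under 0.05 there were 2 of 20 lower and 2 higher, close to the shares over all genes (7.89% and 6.03%). *Fundc1*, another mitophagy receptor of the outer membrane, had 9.80, 9.99 and 10.37 on the knockdown arrays, against 10.67, 10.49 and 10.58 on the control arrays. It was 1.44-fold lower (limma adjusted p = 0.0426), and its adjusted p was 0.198 without knockdown replicate 1, 0.161 without knockdown replicate 2, 0.110 without control replicate 1 and 0.145 without control replicate 3. The median of the list was -0.02 with 10 of 20 below 0, and both calls were lost in those 4 fits and when arrays were centred on their medians. *Bnip3* and *Fundc1* had the lowest estimates of the list, and the others lay on either side of 0.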

How the data were processed

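RNA from 3 *Paupar* knockdown and 3 control cultures was read on 6 arrays. The values deposited by the authors are log2 expression values of transcript clusters, made by RMA background correction, quantile normalisation and summarisation; the sources used here do not give tool versions. No batch is named in the labels. Rows with 1 symbol in the platform annotation (21789) were kept, those with several (1621) or none (12146) were left out, and the row with the highest mean stood for each of 19938 genes. After the study's methods, which state a variance cut-off without its measure, the lower 50% by interquartile range were removed (chosen here), leaving 9969. The comparison used R 4.3.3 and limma 3.58.1 (lmFit, eBayes), Benjamini-Hochberg adjustment and a threshold of 0.05; rows outside the filter came from a fit to all 21789. Steps were tested on simulated data. The genes, lists and rules were chosen with earlier results of these data known. Named genes are all rows of the 10 genes, up to 4 called genes per list (or 2 values), and the 3 genes nearest to each called gene, clone and model numbers left out. Alternatives covered filters, rows, scaling, array weights, a replicate block, the prior variance and leaving out arrays. Since only 6 arrays were measured, their number limits the precision.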

Additional observations from a re-analysis of the deposited data

How the results depend on the processing

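The limma count of the 10 genes called lower (3) was 0 with all transcript clusters, 6 with array weights and between 1 and 4 with an array left out, and the count called higher was 0 in each of these settings. The count over all genes (752) was 0 with all transcript clusters, 5561 with array weights (2665 lower and 2896 higher) and between 112 and 1239 with an array left out; of genes called higher (238) it was 360 with a trended, robust prior. With array weights the limma adjusted p was 0.00103 for *P4ha1*, 0.0487 for *Egln3* and 0.00275 for the higher row of *Bnip3l*. *Bnip3* (higher row) was also lost with no variance filter (0.106), a filter on low means (0.0899), arrays centred on their medians (0.0546) and a trended, robust prior (0.0972). With an array left out, estimates of both signs arose for *Arnt* (-0.2203 to 0.0808, above 0 without knockdown replicate 1 or control replicate 1), *Egln1* (-0.0086 to 0.1777, below 0 without control replicate 1), *Egln3* (-0.2395 to 0.0692, above 0 without control replicate 2 or control replicate 3) and the median of the mitophagy list (-0.0186 to 0.02, above 0 without control replicate 3). With arrays centred on their medians the HIF targets had 3 calls in place of 6 and the mitophagy list 0 in place of 2. With an array left out, calls lay between 1 and 9 for HIF targets, 0 and 4 for collagen hydroxylation, 0 and 2 for mitophagy and at 1 for the HIF core. Differences between paralogues kept their direction with the mean of the rows of a gene.

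The labels number the replicates in each group, but same-numbered arrays did not deviate together (r = -0.29, 0.06 and 0.08 over all genes), so they were not treated as pairs. With the replicate number as a block in limma, 3 of the 10 genes and 680 genes in all were called. In that fit the adjusted p of *Bnip3* was 0.0033 in the higher row and 0.0416 in the lower row. The causes of these changes were not tested. With 3 arrays per group, changes well under those of *Hif1a* or *P4ha2* could be missed.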
